A study of Rattus norvegicus with 8 samples.

Results

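The genes described here make or break down cyclic AMP (cAMP) in the rat hypothalamus. They are the 6 adenylyl cyclase genes Adcy1, Adcy2, Adcy3, Adcy5, Adcy8 and Adcy9 and the 4 phosphodiesterase genes Pde4b, Pde4d, Pde10a and Pde1c. Members were the rows whose gene symbol equals 1 of these 10 names. All 10 genes had rows, and together they held 135 alternative polyadenylation (APA) sites, out of 98356 sites and 18003 gene symbols in all. No filter on low values was applied, so all 135 sites and all 10 genes entered the tests.

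Male Long-Evans rats were compared in 2 groups of 4. Cannabis-exposed rats (replicates 1, 2, 3 and 5) breathed the vapor of heated cannabis plant matter for 10 min. For the air-treated group (replicates 1, 2, 3 and 4) the procedure was the same except that no plant matter was loaded. RNA of the hypothalamus, labelled as its mediobasal part, was taken 1 hr after exposure, so the comparison concerns a single early time after a single exposure, and each library is the tissue of a separate rat. The assay was WTTS-Seq (whole transcriptome termini site sequencing), which is built to read the 3′ ends of polyadenylated RNA. The position of a read was taken as the APA site at which a transcript ended.

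Adenylyl cyclases convert ATP into cAMP, which activates protein kinase A and other effectors, and phosphodiesterases hydrolyse cAMP and so end the signal. The main brain receptor for THC, CB1, couples to inhibitory G proteins, which restrain many of the cyclases, and protein kinase A in turn phosphorylates the transcription factor CREB. The cyclases differ in their regulation: Adcy1 and Adcy8 are stimulated by calcium and calmodulin, whereas Adcy5 is inhibited by calcium and by inhibitory G proteins. The phosphodiesterases differ in substrate: Pde4b and Pde4d hydrolyse cAMP alone, whereas Pde10a and Pde1c hydrolyse both cAMP and cyclic GMP.

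The values are normalized counts: the reads of each site after scaling by the size factor of its library. Libraries held from 1159811 reads (control replicate 4) to 3706778 reads (cannabis replicate 2), and 1 read was worth from 0.664 to 1.99 normalized counts. No 2 libraries were alike within sampling noise. The tissue label was checked against marker genes, summed per library. All 12 hypothalamic markers were listed, with sums from 3292 to 5636 in controls and from 7473 to 9510 in cannabis-exposed rats. Avp (means 1952 and 4934) and Oxt (596 and 1193) passed P under 0.01 in limma as higher, each with an adjusted P of 0.999. Of all gene totals 0.278% passed in either direction. No other hypothalamic marker passed, and Sim1 was lower (98.1 and 76.7), so the sums do not stand for hypothalamic markers in general. The 5 ventral midbrain markers were listed too, with sums from 566 to 776 in controls and from 96.9 to 253 in cannabis-exposed rats. Slc6a3, Th and En1 passed as lower, with limma adjusted P of 0.0218, 0.557 and 0.107, respectively. Pitx3 and Nr4a2 did not pass. Slc6a3 and Th serve dopamine neurons, which the paper also places in the arcuate nucleus, so they need not mark the midbrain alone. The paper does not place En1 there, and its means were 31.9 in controls and 3.81 in cannabis-exposed rats. Pitx3 had means of 2.59 and 0.332 and Nr4a2 of 21.3 and 17.3, respectively. Whether the dissected tissue differed between the groups was not tested. Of 9 striatal markers 8 were listed and none of these passed, with sums from 453 to 614 and from 397 to 693, respectively. Markers of thalamus (4 of 4 listed), cortex (1 of 4), choroid plexus (3 of 3) and oligodendrocytes (4 of 4) gave no such call. The part of these marker differences in the values below was not tested. Less RNA per cell and fewer cells of a type cannot be told apart in whole tissue.

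None of the 10 gene totals passed the test between cannabis-exposed rats and controls. A gene total is the sum of the normalized counts over all sites of the gene, and it was tested with limma on log2(total + 1), a scale that understates the change of low genes. At P under 0.01, 0 of 10 totals passed, beside 0.278% of all 18003 totals, and 0 passed an unadjusted P of 0.05, beside 2.41%. On the recovered reads edgeR called 0 of 10, beside 0.3%, and DESeq2 0 of 10, beside 0.422%, and 0 had an unadjusted P under 0.05 in either tool. The Benjamini-Hochberg adjusted P from limma was 0.999 for every member. Of the 10 log2 fold changes 4 were above and 6 below 0, with a median of -0.11 against 0.05 over all genes. The groups overlapped in all 10 genes, beside 1.98% of all genes without overlap.

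**Figure D1:**
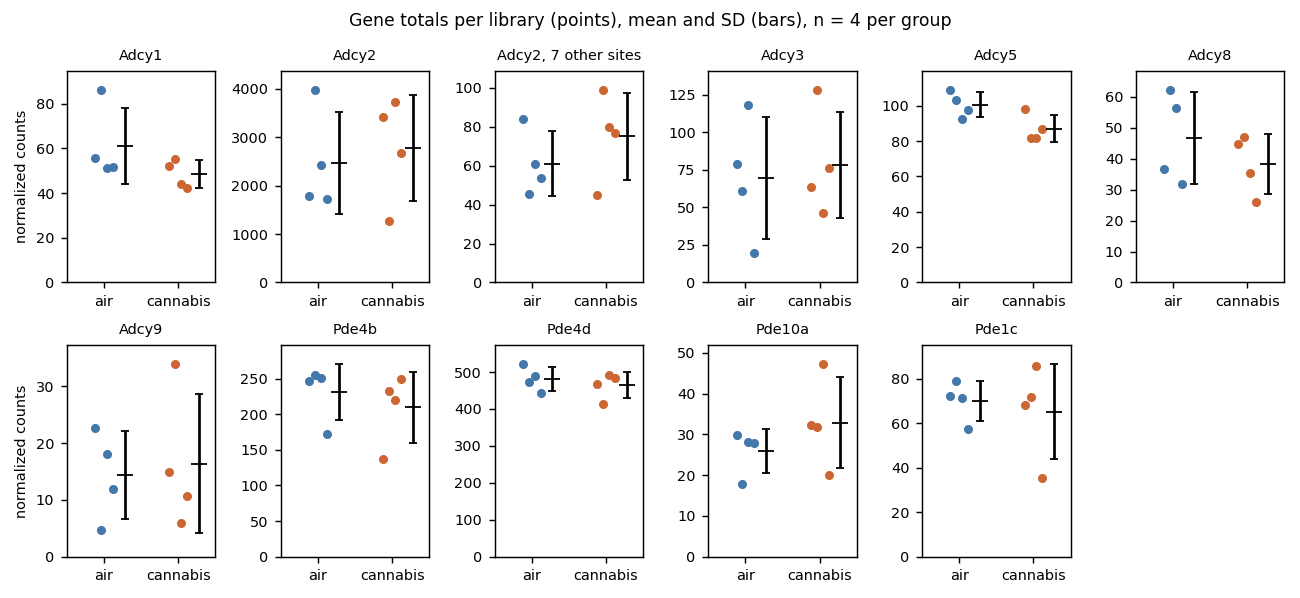
Normalized counts summed over all sites of each gene (vertical axis, separate linear scale per panel, starting at 0) in the 4 air-treated controls and the 4 cannabis-exposed rats. Points are libraries and bars are the mean and SD; an extra panel gives Adcy2 without its leading site. The 2 groups overlap in every panel.

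The levels spanned a wide range. A 3′ end read counts a transcript once whatever its length, so normalized counts were set beside each other without division by length. Averaged over the 8 libraries, Adcy2 was highest at 2625, followed by Pde4d at 473 and Pde4b at 220. Adcy5 (93.8), Adcy3 (74.0), Pde1c (67.6), Adcy1 (54.8) and Adcy8 (42.5) formed a middle range in which neighbours overlapped across libraries. Pde10a (29.4) and Adcy9 (15.4) were lowest. The ranges of Pde4d (413 to 521) and Pde4b (137 to 255) did not overlap, and Adcy2 lay above both in every library. The place of Adcy2 rested on 1 site, described next, that lay on the strand opposite to the strand RefSeq gives for the gene. This rank therefore concerns reads given the symbol Adcy2. Without that site, the other 7 Adcy2 sites summed to between 44.7 and 99.0.

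Adcy2, a cyclase that G protein beta-gamma subunits stimulate, stood apart in how its reads were spread. Its leading site, here called site 1 because sites are numbered by their mean level, held 97.1% of the 22182 reads given the symbol Adcy2. That single site also held 67.7% of the 31806 reads of all 135 sites. Adcy2 site 1 had 1703, 3932, 2355 and 1662 normalized counts in controls 1, 2, 3 and 4, and 3372, 1174, 3651 and 2607 in cannabis replicates 1, 2, 3 and 5. High and low libraries occurred in both groups, with cannabis replicate 2 lowest and control replicate 2 highest. The fitted log2 fold change was 0.13 (95% interval -0.49 to 0.75, limma P = 0.668, exact permutation P = 0.800).

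The annotation of APA sites made by the authors places this site in Rnor_6.0: it spans 2 bases on chromosome 1, from 37528108 to 37528109, on the minus strand, and is classed as intronic. RefSeq places Adcy2 on the plus strand of the GRCr8 assembly. Strand was therefore compared for the sites on chromosome 1 in the annotation used here, which covers 1960 of the most-read sites. Of the 102 sites classed as overlapping an exon, 101 lay on the strand of their gene, as did 44 of the 46 sites classed as contained in an exon. Of the 12 sites classed as intronic, 3 lay on the strand of their gene and 9 on the other strand, Adcy2 site 1 among them. WTTS-Seq reads keep their strand. If Adcy2 has the same strand in both builds, reads at this site are therefore not the ends of its transcripts. Whether the strand is the same was not tested. Totals, shares and fold changes of Adcy2 that include this site describe reads given the symbol. The builds differ, so only the strand was compared and no coordinate was carried over.

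Without site 1, the other 7 sites of Adcy2 summed to 84.1, 45.5, 61.1 and 53.6 normalized counts in controls and to 44.7, 99.0, 79.7 and 76.8 in cannabis-exposed rats. Controls averaged 61.1 ± 16.6 and cannabis-exposed rats 75.0 ± 22.5 (SD, n = 4 each). Both the lowest and the highest library were cannabis-exposed, so the groups overlapped. The log2 fold change of this sum was 0.27 (95% interval -0.36 to 0.91, limma P = 0.367, exact two-sided permutation P = 0.457). With site 1 the total was 2474 ± 1051 and 2776 ± 1094, respectively, with a log2 fold change of 0.14 (95% interval -0.60 to 0.88). The 7-site sum was added after the data had been seen.

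Adcy1, a neuronal cyclase stimulated by calcium and calmodulin, held the site whose cannabis values all lay below the controls. Adcy1 site 1 had 35.8, 40.7, 42.3 and 35.7 normalized counts in controls and 22.4, 33.2, 34.4 and 24.6 in cannabis-exposed rats. The means were 38.6 ± 3.36 and 28.6 ± 6.07 (SD, n = 4 each), and the gap between the lowest control and the highest cannabis-exposed rat was small. Its log2 fold change was -0.44 (95% interval -1.24 to 0.36) and its limma P 0.266, so the site was not called. The exact two-sided permutation P was 0.0286, the smallest that 4 against 4 libraries can give. Among the 135 sites, 2 had groups without overlap, 1 lower (this site), beside 1.01% of all 98356 sites, and 1 higher (Pde4d site 38), beside 0.992%. Each is 0.741% of the 135.

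The Adcy1 total did not follow its leading site as closely. It was 55.6, 86.2, 51.0 and 51.6 in controls and 52.2, 55.1, 44.3 and 42.2 in cannabis-exposed rats. Control replicate 2 stood above all other libraries, and the groups overlapped. Most of that excess was at Adcy1 site 2, with 34.7 in control replicate 2 and 0 in control replicate 3. The total had a log2 fold change of -0.30 (95% interval -0.86 to 0.26, limma P = 0.264, exact permutation P = 0.229). Without control replicate 2 it was -0.13. Site 1 made up 66.0% ± 14.7 of the Adcy1 total in controls against 59.8% ± 14.3 in the cannabis group (SD, n = 4 each).

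Adcy8, the other calcium-stimulated cyclase of the nervous system, spread its reads over 11 sites, of which the leading one held 15.8%. Its total was 36.6, 62.2, 56.4 and 31.8 in controls and 44.7, 47.2, 35.4 and 26.1 in cannabis-exposed rats. The 2 highest libraries were controls and the lowest was cannabis replicate 5, but the ranges overlapped. Controls averaged 46.7 ± 14.9 and cannabis-exposed rats 38.4 ± 9.60 (SD, n = 4 each), a log2 fold change of -0.26 (95% interval -0.93 to 0.41, limma P = 0.416, exact permutation P = 0.457). Single libraries moved this value, to -0.11 without control replicate 2, -0.15 without control replicate 3, -0.42 without control replicate 4 and -0.0925 without cannabis replicate 5. No Adcy8 site reached a mean of 10 normalized counts, so the division among its sites was poorly measured.

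Adcy5 is the main cyclase of the striatum and is inhibited by calcium and inhibitory G proteins. Its total was 109, 103, 92.7 and 97.3 in controls and 98.1, 81.7, 81.7 and 86.8 in cannabis-exposed rats, the tightest replicates among the cyclases. Of the 4 cannabis-exposed rats 3 lay below every control, and cannabis replicate 1 lay within the control range. The means were 100.5 ± 7.04 and 87.1 ± 7.74 (SD, n = 4 each), with a log2 fold change of -0.21 (95% interval -0.65 to 0.24, limma P = 0.336, exact permutation P = 0.0857). Site 1 of Adcy5 carried 73.5% of its reads, and had a log2 fold change of -0.29 (limma P = 0.404, exact permutation P = 0.143).

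Adcy3, a cyclase of olfactory neurons and of neuronal primary cilia, varied widely within both groups. Its total was 79.0, 61.1, 118 and 19.9 in controls and 63.3, 128, 46.2 and 76.0 in cannabis-exposed rats. Its spread followed the number of reads in the library, as described below, and the groups overlapped throughout. Between groups the log2 fold change was 0.32, with a 95% interval of -0.68 to 1.32 (limma P = 0.498, exact permutation P = 0.657).

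Adcy9, a widely expressed cyclase that is insensitive to forskolin, was the lowest member. It had 151 reads over the 8 libraries on 3 sites, and its total ranged from 4.79 to 22.7 in controls and from 5.90 to 33.9 in cannabis-exposed rats. Its log2 fold change of 0.10 had a 95% interval of -1.08 to 1.28, the widest among the 10 totals.

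Pde4d, a cAMP-specific phosphodiesterase inhibited by rolipram, was the most evenly expressed member. Its total was 521, 474, 490 and 443 in controls and 468, 413, 492 and 483 in cannabis-exposed rats. The means were 482 ± 32.7 and 464 ± 35.4 (SD, n = 4 each), and the log2 fold change was -0.06 with a 95% interval of -0.43 to 0.32 (limma P = 0.756, exact permutation P = 0.486). This interval was the narrowest among the 10 totals. Pde4d also had the most sites, 54, of which 10 had a mean of at least 10 normalized counts, and site 1 held only 15.7% of its reads.

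The 3 member sites with an unadjusted limma P under 0.05 were all Pde4d sites, and they are named because of these values. Pde4d site 13 had 19.0, 11.97, 7.39 and 13.9 normalized counts in controls and 7.45, 1.99, 4.92 and 3.84 in cannabis-exposed rats, so the groups met only at control replicate 3 and cannabis replicate 1. Its log2 fold change was -1.37 (SE 0.52, limma P = 0.015, adjusted P = 1.00, exact permutation P = 0.0571). Its share of the Pde4d total was 2.70% in controls against 0.967% in the cannabis group. Without cannabis replicate 1 the log2 fold change was -1.61 and the limma P 0.00704, which would be a call.

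Pde4d site 38 had 2.92, 0, 2.01 and 0 normalized counts in controls and 6.21, 3.99, 5.90 and 3.07 in cannabis-exposed rats. Every cannabis-exposed rat was above every control, on 28 reads in all and at most 6 in a library. A count of 0 allows up to 3 reads, which is 3.59 normalized counts in control replicate 2 and 5.96 in control replicate 4, for counting error only. Cannabis replicate 5 lay below the first of these limits and cannabis replicates 2, 3 and 5 below the second. This is a log2 fold change of 1.60 (SE 0.63, limma P = 0.019, adjusted P = 1.00, exact permutation P = 0.0286). Without control replicate 1 it was 1.96, with a limma P of 0.00986, which would be a call. Pde4d site 35, with 27 reads, had a log2 fold change of -1.37 (limma P = 0.048, exact permutation P = 0.114). Pde4d site 3, the best covered of the sites near that threshold, had 18.3, 19.2, 41.6 and 25.8 in controls and 48.4, 55.8, 23.6 and 75.3 in cannabis-exposed rats. Cannabis replicate 3 lay among the controls, giving a log2 fold change of 0.89 (95% interval -0.02 to 1.80, limma P = 0.054, exact permutation P = 0.0857).

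Pde4b, the closest relative of Pde4d in this set, had 24 sites, of which 6 had a mean of at least 10. Its total was 246, 255, 250 and 173 in controls and 137, 232, 220 and 249 in cannabis-exposed rats. In each group a single library, control replicate 4 and cannabis replicate 1, lay well below the other 3. The Pde4b log2 fold change was -0.16 (95% interval -0.67 to 0.35, limma P = 0.514, exact permutation P = 0.486). Control replicate 4 (1159811 reads) and cannabis replicate 1 (1919709 reads) are the 2 libraries with the fewest reads. Control replicate 2, with 1941129 reads, had the highest Pde4b total. The slope of this total against the reads, fitted as described below, did not pass (limma adjusted P = 0.246).

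Pde10a, a phosphodiesterase best known from striatal medium spiny neurons, had 260 reads on 5 sites. Its total was 30.0, 18.0, 28.2 and 27.8 in controls and 32.3, 31.9, 47.2 and 19.97 in cannabis-exposed rats. The values overlapped, with the highest and the second lowest library both cannabis-exposed, and the log2 fold change was 0.29 (95% interval -0.41 to 1.00, limma P = 0.389, exact permutation P = 0.314). It was 0.13 without control replicate 2, 0.10 without cannabis replicate 3 and 0.50 without cannabis replicate 5. The striatal marker sums given above also overlapped between the groups.

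Pde10a was the member whose promoter held most of a cAMP response element, the sequence that CREB binds. RefSeq promoters of GRCr8, from 250 bases before to 50 bases after a start, were found for 8 of the 10 genes, 14 promoters in all, and none were used for Adcy3 and Adcy8. The full element TGACGTCA, on either strand, was in 0 of the 14, beside 1.83% of 33469 promoters. Its first 7 bases, TGACGTC, which also lie within the full element, were in 1 of 14, that of Pde10a, beside 3.22%. The half-site TGACG, contained in both longer motifs, was in 4 of 14 (1 each of Adcy9 and Pde10a and 2 of Pde4d), beside 21.2%. The Pde10a promoter held the 7 bases at 2 places, printed with the motif in capitals to show how near each comes to the full element. The lines read along the minus strand of chromosome 1, from 5′ to 3′. The upstream place, chr1:54765829-54765858, has the motif in the forward reading. The downstream place, chr1:54765756-54765785, has it on the other strand, where it appears as GACGTCA. Their first motif bases are at -179 and -106 from the start.
Pde10a upstream: ggtccggctgcTGACGTCcaagcctctgct
Pde10a downstream: acgaggctgcaGACGTCAtcgcctcctgtt
These matches describe letters in the window and were not tested for binding.

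Pde1c, a phosphodiesterase activated by calcium and calmodulin, had 17 sites, with 19.97% of its reads on the leading one. Its total was 72.4, 79.0, 71.2 and 57.6 in controls and 68.3, 71.7, 85.6 and 35.3 in cannabis-exposed rats. Cannabis replicates 3 and 5 were the highest and the lowest of all 8 libraries. Its log2 fold change was -0.16 (95% interval -0.78 to 0.46, limma P = 0.584, exact permutation P = 0.771).

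**Figure D2:**
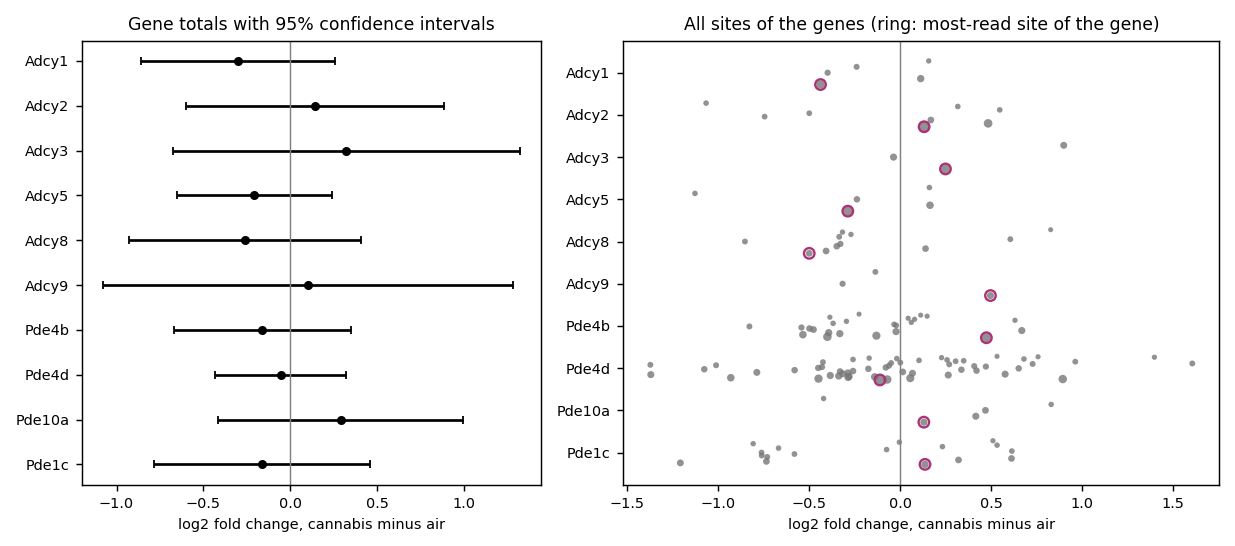
Log2 fold change of cannabis-exposed rats against air-treated controls (horizontal axes, log2(normalized count + 1) scale, n = 4 per group). Left, limma estimates of the gene totals with 95% intervals, all of which include 0, from -0.30 for Adcy1 to 0.32 for Adcy3; right, every one of the 135 sites as a point that grows with its mean level and a ring around site 1 of each gene, with Pde4d reaching from -1.37 to 1.60.

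Site by site, no member passed. Of the 135 sites, 0 had a limma P under 0.01, beside 0.381% of all sites, and 3 (2.22%) had a P under 0.05, beside 3.03% of all sites. At P under 0.01, DESeq2 called 0 of the 135, beside 0.315% of all sites, and edgeR called 1, beside 0.526%. At P under 0.05, DESeq2 called 2 (1.48%, beside 1.86%) and edgeR 4 (2.96%, beside 2.91%). The edgeR call at P under 0.01 was Adcy2 site 8 (edgeR adjusted P = 1.00), whose 25 reads all lay in control replicate 1 (18.3 normalized counts) with 0 in the other 7 libraries, so no fold change is given for it. Of the 135 fold changes 58 were above and 77 below 0, with a median of -0.07 against 0.01 over all sites. They ranged from -1.37 to 1.60, with a median SE of 0.64. Only 24 of the 135 sites had a mean of at least 10 normalized counts, and 76 had a mean under 5.

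The use of sites within a gene was then tested, as the log2 ratio of a site to all other sites of its gene. At P under 0.01 limma called 0 of 135 sites, beside 0.389% of 57287 sites of genes with several sites. At P under 0.05 it called 2 (1.48%, beside 3.08%), Pde4d site 13 with a log2 ratio change of -1.34 and Pde4d site 38 with 1.67, both with an adjusted P of 1.00. The share of the leading site gave exact permutation P from 0.400 to 0.943 over the 10 genes. It was 76.5% in controls against 73.4% in the cannabis group for Adcy3, 76.1% and 72.0% for Adcy5, and 16.4% and 15.996% for Adcy8. For the phosphodiesterases it was 15.4% and 14.9% for Pde4d, 18.5% and 23.9% for Pde4b, 34.9% and 31.0% for Pde10a, and 16.9% and 21.0% for Pde1c. Adcy9, with its few reads, had 49.96% and 63.7%.

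**Figure D3:**
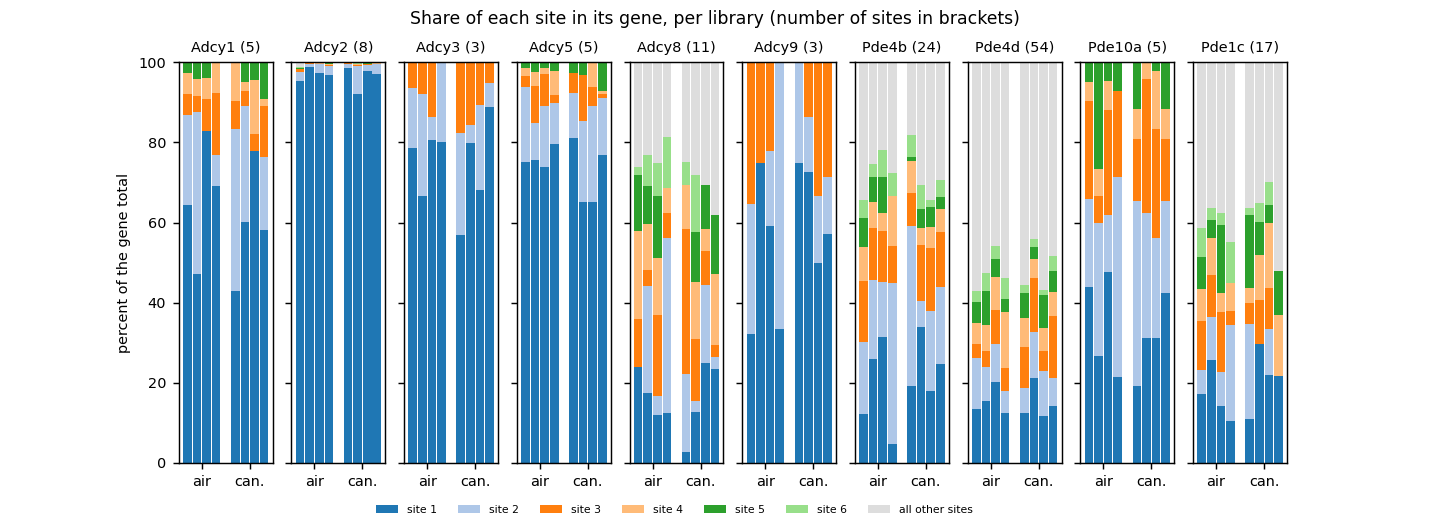
Percent of each gene total on each of its sites (vertical axis), 1 bar per library, with air-treated controls left and cannabis-exposed rats right in each panel. Colours are sites 1 to 6 by mean level and grey is all other sites; Adcy2 is filled by site 1 in every library (from 92.2% to 98.9%), and Pde4d is divided among 54 sites.

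The normalized counts were also set against the number of reads in the library. The slope against log2 of the reads was fitted in limma with the groups as a term, a test added after the data had been seen. Of the 10 gene totals 1 had a slope with an adjusted P under 0.1, Adcy3, beside 5.07% of all gene totals. The Adcy3 total rose by 1.35 on the log2 scale per doubling of reads (SE 0.25, limma adjusted P = 0.0433). With the reads in the fit, its log2 fold change between groups was -0.01 instead of 0.32. Of the 135 sites 10 had a slope with a P under 0.01, which is 7.41% beside 4.42% of all sites. With adjustment over all sites 2 remained, Adcy3 site 1 and Pde4b site 5, beside 0.326% of all sites.

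Adcy3 site 1 had 62.1, 40.7, 95.3 and 15.9 normalized counts in controls and 36.0, 102, 31.5 and 67.6 in cannabis-exposed rats. It was lowest in the library with the fewest reads and highest in that with the most. Across the 8 libraries r with log2 reads was 0.957 (exact permutation P = 0.000918) and rho 0.905 (exact permutation P = 0.00456), with a limma slope of 1.51 (adjusted P = 0.0901, Benjamini-Hochberg over all 98356 sites). Without control replicate 4 and cannabis replicate 2, the libraries farthest from the median, r was 0.878.

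The slopes of the 2 best covered Pde4b sites had opposite signs, and neither passed the adjusted threshold. Pde4b site 1 was 30.0, 65.8, 78.6 and 7.94 in controls and 26.1, 79.0, 39.4 and 61.4 in cannabis-exposed rats, and Pde4b site 2 was 44.6, 50.3, 34.2 and 69.5 and 54.6, 14.6, 44.3 and 47.6, respectively. For site 1, r was 0.795 (exact permutation P = 0.0178) and rho 0.786 (exact permutation P = 0.0279), with a limma adjusted P of the slope of 0.151. Its r was 0.301 without the same 2 libraries, so the relation rested on them. For site 2, r was -0.737 (exact permutation P = 0.0442) and rho -0.929 (exact permutation P = 0.00223), with a limma adjusted P of 0.316 and an r of -0.740 without those libraries. Pde4b site 5 had a slope of 2.46 (limma adjusted P = 0.0981), with r 0.801 (exact permutation P = 0.0167) and rho 0.714 (exact permutation P = 0.0576), and r 0.572 without them. Adcy2 site 1 had a slope of -0.36 (limma adjusted P = 0.548), with r -0.282 (exact permutation P = 0.501) and rho -0.405 (exact permutation P = 0.327). Without control replicate 4 and cannabis replicate 2 its r was -0.870, so its relation to the reads depended on those libraries. The permutation P of r and rho are unadjusted. For sites picked by their slopes they come from the same values and add no separate test. Relations of this kind were fitted for all 135 sites and printed for those the text turns on. Others had values of r and rho as high, such as Adcy9 site 3 with r 0.896, rho 0.922 and a limma adjusted P of the slope of 0.153. That site had only 31 reads in all, with 0 in control replicate 4 and cannabis replicate 1, the libraries with the fewest reads. The sequencing batch was not given in the labels.

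**Figure D4:**
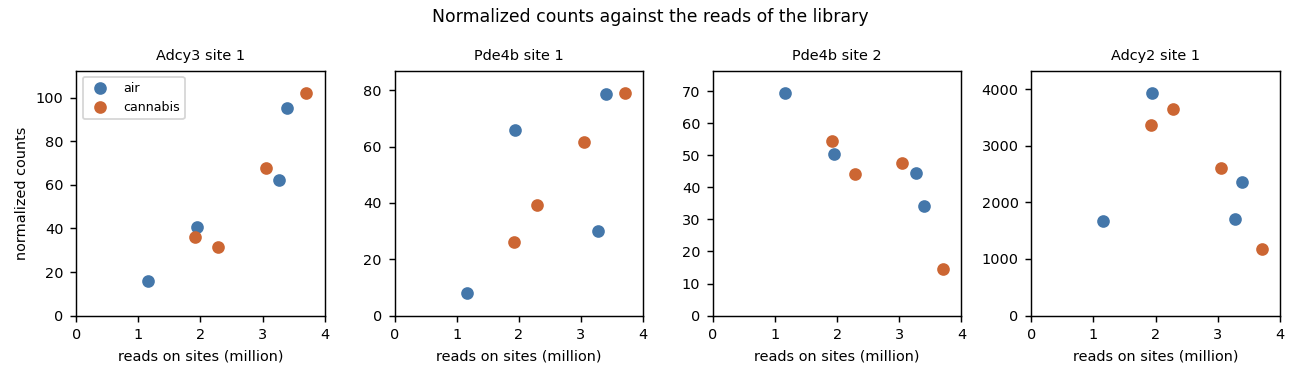
Normalized counts (vertical axes) against reads per library (horizontal axes, linear from 0, in the unit written there) for Adcy3 site 1, Pde4b sites 1 and 2 and Adcy2 site 1; points are libraries, coloured by group. Adcy3 site 1 lies between 15.9 in the library with 1159811 reads and 102 in that with 3706778 reads, and both groups fall along the same rise.

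Other genes of the pathway were taken from a list of 62, of which 56 were listed. In the gene totals limma called 0 of the 56 at P under 0.01, beside the 0.278% of all genes, and 0 at P under 0.05, and edgeR and DESeq2 called 0. The groups overlapped in all 56. Log2 fold changes ran from -1.04 (Akap1, a protein kinase A anchor, 22 reads) to 0.89 (Prkaca, a catalytic subunit of that kinase), with a median of 0.12 and 33 above 0. Of the other cyclases, 3 of 4 were listed, and Adcy6, the calcium-inhibited relative of Adcy5, was the highest with 474 ± 222 in controls against 556 ± 116 in the cannabis group (SD, n = 4 each, log2 fold change 0.33). The slope against the reads had an adjusted P under 0.1 in 5 of the 56 (8.93%, beside the 5.07% of all gene totals), namely Adcy6, Adcy7, Prkaca, Prkar1a and Pkia. With the reads in the fit, the log2 fold change was 0.14 for Adcy6 and 0.52 for Prkaca. The 14 other phosphodiesterases had log2 fold changes from -0.82 to 0.38, with a median of 0.00 to 2 decimals. The lowest was Pde5a, a cyclic GMP-specific enzyme, with -0.82 (limma adjusted P = 0.999, exact permutation P = 0.114), which also had the smallest limma P of the 56. The 9 G proteins, the 9 protein kinase A subunits and inhibitors, the 10 anchors, 5 of 8 other cAMP sensors and 6 of 7 transcription factors gave 0 calls, in limma at P under 0.01 as at P under 0.05.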

How the data were processed

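WTTS-Seq libraries of hypothalamus from 4 air-treated controls and 4 cannabis-exposed rats were used, with groups from the sample labels. The authors mapped reads with TMAP 3.4.1 to Rnor 6.0, joined read ends within 24 bases into APA sites of 16 or more reads, and named genes with Cuffcompare 2.2.1 (annotation release 106). The deposited values are a signal, normalized counts per site: reads divided by a DESeq2 size factor. From them, whole reads were recovered (100% of values whole within 0.05 reads). A median site had 34 reads, so intervals are wide. Sites without a symbol (13.9% of reads) were tested but joined no gene total.

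Sites, gene totals (18003) and site use were fitted over the whole table by limma 3.58.1 under R 4.3.3 (lmFit, then eBayes with trend) on log2(value + 1), without covariates, Benjamini-Hochberg adjusted over all features. Thresholds were 0.01 for P and 0.1 for adjusted P. Single values also had exact two-sided permutation tests of 4 against 4. Recovered reads were tested with edgeR 4.0.16 (quasi-likelihood, TMM), which called 517 sites and 54 gene totals at P under 0.01, and with DESeq2 1.42.0, which called 310 and 76. The rest used Python 3.11.15, with matplotlib 3.10.9, scipy 1.17.1, pandas 2.3.3 and numpy 2.4.6.

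The fits were tested on simulated reads: of 200 features changed by 2 on the log2 scale, more than limma fitted for any member, 90% of the sites and 93% of the gene totals were found, and for site use 72.9% of 170. These were well covered features, and such rates do not carry over to smaller changes or to sites of few reads. The simulated reads had the same dispersion for every feature and no slope against the reads of the library. Of the unchanged simulated sites 0.91% were called, against 0.381% of all sites in the data. The simulated noise thus differed from that of the data, and the rates may not hold for them. Every gene listed, the leading site of each, and sites with P under 0.01 were to be named; other sites were named after their values were seen. Members, gene lists and markers were chosen with earlier results of these data known. Alternatives were other pseudocounts (0.1, 0.5, 5), sites or genes averaging 10 or more, equal totals, no trend, edgeR, DESeq2, a replicate block, each library left out, and, added after seeing the data, the reads as a covariate.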

Additional observations from a re-analysis of the deposited data

Results flagged for a closer look

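Gene totals and leading sites of the 10 genes were screened for a library far from the other 3 of its group, over 40 groups of 4, and chance alone flags about 1 in 20 such groups. The Adcy1 total of control replicate 2, 86.2 normalized counts, stood above the other controls by 0.871 of the range of the group, past the 95% limit of Dixon's test. The Pde4b total of control replicate 4, 173 normalized counts, stood below the other controls by 0.895 of the range. That library had the fewest reads, 1159811, but the slope of the Pde4b total against the reads did not pass (limma adjusted P = 0.246).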

How the results depend on the processing

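Calls at P under 0.01 stayed at 0 for gene totals, site use and the other pathway genes under every alternative run. For sites, edgeR called 1 and the others called 0, apart from leaving out a library, where the count was from 0 to 1 (Pde4d site 38 without control replicate 1, Pde4d site 13 without cannabis replicate 1). Of 358 fold changes recomputed for gene totals and leading sites, 327 kept their direction and 31 reversed, and none of these was called before or after. With the replicate number as a block, 0 sites, gene totals and pathway genes were called, and the log2 fold changes that reversed were Adcy2 total -0.0274 and site 1 -0.0420, Adcy3 total -0.20 and site 1 -0.34, Pde4b site 1 -0.30, and Pde1c total 0.0145. Control replicate 4 and cannabis replicate 5 had no library of the same number, so the blocked fold changes rest on replicates 1, 2 and 3 of each group. Correlations of same-numbered libraries, taken on deviations from the group means, were -0.23, 0.08 and -0.003. Those of other pairs ran from -0.35 (control replicate 3 with cannabis replicate 1) to 0.47 (control replicate 4 with cannabis replicate 1). Whether the shared numbers pair samples is not given in the labels, and so few pairs cannot decide it. With the reads as a covariate, Adcy3 total became -0.00951 and site 1 -0.12, Adcy9 total -0.10 and Pde10a site 1 -0.0297. Without each library in turn, reversed results ranged from -0.0387 to 0.48 (Adcy2 total), -0.0557 to 0.49 (Adcy2 site 1), -0.18 to 0.66 (Adcy3 total), -0.23 to 0.61 (Adcy3 site 1), -0.32 to 0.46 (Adcy9 total), -0.29 to 0.0329 (Pde4b total), -0.18 to 0.87 (Pde4b site 1), -0.24 to 0.0335 (Pde4d site 1), -0.11 to 0.33 (Pde10a site 1), -0.31 to 0.10 (Pde1c total) and -0.13 to 0.41 (Pde1c site 1). The other results kept their direction, from -0.38 to -0.13 (Adcy1 total), -0.53 to -0.33 (Adcy1 site 1), -0.26 to -0.17 (Adcy5 total), -0.40 to -0.21 (Adcy5 site 1), -0.42 to -0.0925 (Adcy8 total), -0.76 to -0.0466 (Adcy8 site 1), 0.0282 to 0.93 (Adcy9 site 1), -0.0953 to -0.000721 (Pde4d total) and 0.10 to 0.50 (Pde10a total). The cause of these reversals and shifts was not tested. The leading sites of Adcy8, Adcy9 and Pde10a have means under 10 and no value under that filter. Depth limits the sites: the median site had 33 reads over 8 libraries. The median SE of the site log2 fold changes was 0.64, so changes that are small beside it could go undetected.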
